A study of Mus musculus with 4 samples.

Results

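The genes described here are 10 transcription factors of the heart and outflow tract, taken by name from a table of 45706 genes. They are the zinc finger genes Gata4, Gata5 and Gata6, Zfpm2 (which encodes FOG2), the homeobox gene Nkx2-5, the MADS-box genes Mef2a and Mef2c, the basic helix-loop-helix genes Hand1 and Hand2, and the LIM-homeobox gene Isl1. All 10 were found under 1 Ensembl gene each and all 10 passed the filter on low counts. The tissue was the outflow tract, which forms the roots of the aorta and pulmonary artery, taken at embryonic day 12.5 from mouse embryos of the C57BL/6 strain. The WT group was wild type. In the Sox17eKO group Sox17, which encodes an endothelial transcription factor, was knocked out in aortic root endothelium by Cre driven from an Nfatc1 enhancer, so other cells of the tissue kept the gene. Each genotype had 2 libraries, and each library was a pool of 10 hearts, so differences between single embryos were not measured. The study set out to identify targets of SOX17.

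GATA4, GATA5 and GATA6 bind the same core DNA sequence and activate genes of heart muscle, endocardium and cushion mesenchyme, and FOG2 binds a zinc finger of GATA factors and modulates their activity. NKX2-5, MEF2C, HAND2 and ISL1 act with them in the second heart field, the progenitor population that builds the outflow tract. MEF2A continues in differentiated muscle. Mutations of GATA4, GATA5, GATA6, NKX2-5 and ZFPM2 have been found in patients with septal, valve or outflow tract defects. In tissue that mixes heart muscle, endothelium, mesenchyme and smooth muscle, fewer cells of a type and less RNA per cell cannot be told apart.

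Promoter sequence was taken from RefSeq (GRCm38.p6, the assembly that mm10 names), which matched 6 of the 10 genes with 8 windows: Gata5, Mef2a, Hand2, Isl1 and Nkx2-5 with 1 each and Mef2c with 3. Gata4, Gata6, Zfpm2 and Hand1 were not matched. The 250 bases before the start are shown for Hand2, because the whole window is an exon of a noncoding RNA on the other strand that was counted separately, and for the start of Mef2c farthest upstream and for Mef2a, because Mef2c came closest to the threshold of the test and Mef2a is its paralog. Capitals mark the letters AGATAA, a sequence that GATA factors can bind, read on either strand.
Hand2, chr8:57320733-57320982, plus strand: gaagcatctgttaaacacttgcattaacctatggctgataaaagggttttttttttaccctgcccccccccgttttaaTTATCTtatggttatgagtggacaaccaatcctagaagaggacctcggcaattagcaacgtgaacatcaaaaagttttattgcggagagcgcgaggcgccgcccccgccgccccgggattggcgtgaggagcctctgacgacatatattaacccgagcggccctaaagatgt
Mef2a, chr7:67372859-67373108, minus strand: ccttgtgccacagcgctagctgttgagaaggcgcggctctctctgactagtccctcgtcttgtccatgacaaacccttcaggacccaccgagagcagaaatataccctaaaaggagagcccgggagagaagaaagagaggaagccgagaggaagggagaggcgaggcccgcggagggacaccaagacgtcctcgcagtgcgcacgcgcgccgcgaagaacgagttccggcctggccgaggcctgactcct
Mef2c, chr13:83503784-83504033, plus strand: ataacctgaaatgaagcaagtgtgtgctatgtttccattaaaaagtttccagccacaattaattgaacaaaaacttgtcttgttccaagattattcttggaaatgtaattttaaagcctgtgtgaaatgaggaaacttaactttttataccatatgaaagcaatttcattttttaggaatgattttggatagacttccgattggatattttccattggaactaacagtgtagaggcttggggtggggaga
In the Hand2 window the match lies on the minus strand, and its leftmost base is 172 bases before the start. AGATAA was found in 1 of the 8 windows, and in 9.99% of the 32851 windows of the RefSeq table cut to the same length. AACAAT, a sequence that SOX factors can bind, was found on neither strand in any of the 8 windows and was present in 9.42% of all windows. As AACAAT had no match, the 2 motifs could not overlap in these windows. A match is a string of letters and not a tested site, and its lack says only that these letters are not in these windows.

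Reads assigned to genes numbered 8113463 to 21883956 per library, fewest in WT replicate 2. Sox17 itself was at 6.05 and 6.83 CPM (counts scaled to library size with TMM factors) in WT replicates 1 and 2 and at 2.76 and 2.82 CPM in Sox17eKO replicates 1 and 2, and the genotypes did not overlap. This check of the labels gave a log2 fold change of -1.19 ± 0.23 (SE; edgeR quasi-likelihood test, Benjamini-Hochberg adjusted p = 0.00574). The value was -1.12 and not past the threshold without WT replicate 2 (edgeR adjusted p = 0.0786). Of the reads counted as in a gene, in none or ambiguous, 22.2% (first WT library) and 20.4% (second) were assigned to no gene. The shares were 34.1% and 29.5% for the first and second Sox17eKO library. Strand handling of the counting is not given, so these may include exonic reads of the opposite strand. Long genes had higher values in Sox17eKO across the transcriptome, as given below for the factors.

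Compared per kilobase of annotated exon, the 10 factors spanned a wide range of levels. Gata4 and Hand2 were highest, with means over the 4 libraries of 52.9 and 50.2 CPM per kb, and their ranges overlapped (50.04 to 55.4 and 45.6 to 52.8). Nkx2-5 followed at 28.2 CPM per kb and Gata6 at 20.0, without overlap between the ranges of these neighbours in the order (23.6 to 34.4 and 18.7 to 21.3). Mef2a was at 16.8 CPM per kb, Gata5 at 11.6 and Mef2c at 9.31, again with no overlap from one to the next. The ranges of Mef2c (7.91 to 10.3 CPM per kb) and Hand1 (4.87 to 8.49, mean 6.22) overlapped. Lowest were Zfpm2 (2.69 CPM per kb) and Isl1 (2.28), whose ranges also overlapped. Isl1, which marks progenitors and is switched off in most cells as they differentiate, was thus the least abundant of the set per length at this stage. Lengths matter for this order, because the union of exons holds every annotated variant. With the longest single transcript as length, Mef2a moved from rank 5 to rank 3 in WT, Nkx2-5 from 3 to 5, and Mef2c and Gata5 exchanged ranks 6 and 7.

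**Figure D1:**
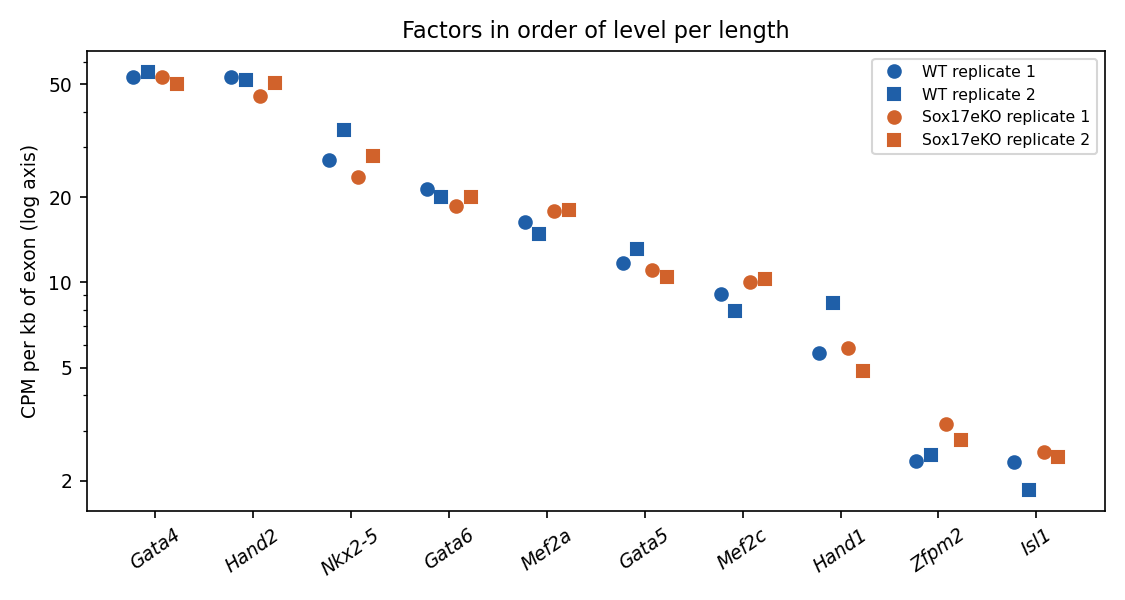
Level of each factor in CPM per kb of exon (vertical log axis), with genes ordered by their mean over the 4 libraries and 1 point per library (blue WT, orange Sox17eKO; circles replicate 1, squares replicate 2). Gata4 and Hand2 sit near 50 CPM per kb in every library and Zfpm2 and Isl1 between 1.85 and 3.17.

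None of the 10 factors passed the test between the genotypes. Over all genes, 5.35% of 16570 tested were called at an edgeR adjusted p under 0.05 (4.13% higher and 1.22% lower in Sox17eKO; 4.64% and 0.67% when scaled to library size alone), so 0 of 10 is near that background. At an unadjusted p under 0.05 the count was 3 of 10, all of them higher in Sox17eKO (Mef2c, Zfpm2 and Mef2a), against 20.9% of all genes (12.2% higher). DESeq2 called 0 of the 7 factors to which it gave an adjusted p (5.88% of the 6482 genes to which it gave one), and limma-voom 0 of 10 (3.12% of all genes). With no filter on low counts Mef2c alone was called, among 4.87% of all genes. Fitted levels in Sox17eKO were higher than in WT for 4 factors and lower for 6, with a median log2 fold change of -0.09 beside -0.01 for all genes tested. The 95% intervals of all 10 lay between -0.75 and 0.56 on the log2 scale, so a doubling or a halving lay outside each of them. When counts of this comparison were simulated for 16570 genes, 64% of those changed 1.5-fold and 76% of those changed 2-fold were called. At the smallest change simulated, which was under 1.5-fold, 18% were called. The fitted differences of all 10 factors were also under 1.5-fold. Differences of these sizes or smaller can thus be missed with 2 pools a genotype. The CPM values of the genotypes did not overlap for 8 of 10 factors (4 higher, 4 lower), as was the case for 52.8% of all genes tested (26.5% higher, 26.2% lower). Without WT replicate 1 the calls were 2 of 10, Mef2c and Hand1, where 5.85% of all genes were called.

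**Figure D2:**
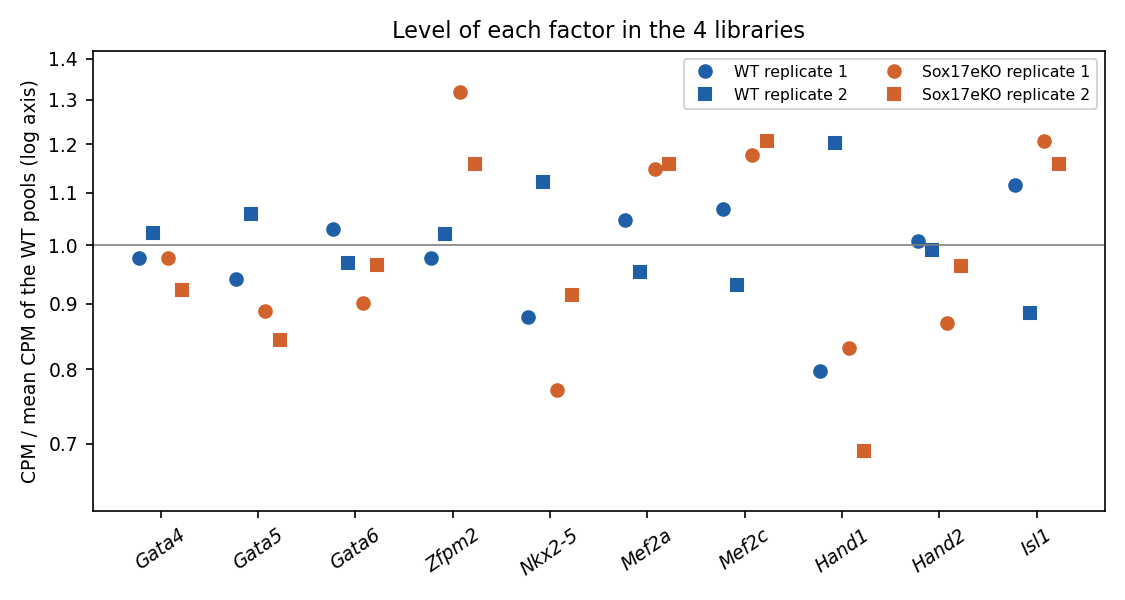
CPM of each factor in each library divided by the mean CPM of the 2 WT pools (vertical log axis; blue WT, orange Sox17eKO; circles replicate 1, squares replicate 2; grey line at 1). For Zfpm2, Mef2a, Mef2c and Isl1 both orange points lie above both blue points, for Gata4, Gata5, Gata6 and Hand2 they lie below, and for Nkx2-5 and Hand1 the genotypes overlap.

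The GATA genes had slightly lower values in the Sox17eKO pools, and none passed. Gata4, needed for heart muscle and cushion formation, was at 207 and 216 CPM in WT and at 207 and 195 CPM in Sox17eKO replicates 1 and 2. The lower WT value (207.1) and the higher Sox17eKO value (206.8) were nearly equal, so the groups were barely separate. Its fitted log2 fold change was -0.07 ± 0.08 (SE; edgeR adjusted p = 0.633), with a 95% interval from -0.23 to 0.09, and it ranged from -0.12 to -0.03 with 1 library left out. This estimate rests on 1710 to 4295 reads per library, and on chromosome 14 the gene spans 63198922 to 63271692 on the minus strand. Gata5, which in the heart is mainly an endocardial factor and whose loss in mice gives bicuspid aortic valves, was at 38.2 and 43.0 CPM in WT and at 36.1 and 34.3 CPM in Sox17eKO. Both Sox17eKO pools were below both WT pools, with a log2 fold change of -0.20 ± 0.10 (SE) and a 95% interval of -0.41 to 0.0058 (edgeR adjusted p = 0.252). Leaving out 1 WT pool moved Gata5 to -0.29 (replicate 1) or -0.12 (replicate 2), neither past the threshold (edgeR adjusted p = 0.169 and 0.701). Gata5 lies on chromosome 2 from 180334699 down to 180325133, and the antisense gene Gata5os, which shares 258 exonic bases with it, had 34 reads in all 4 libraries together. Gata6, mutated in patients with persistent truncus arteriosus, was at 139 and 131 CPM in WT and at 122 and 130 CPM in Sox17eKO. The values 130.7 in WT replicate 2 and 130.0 in Sox17eKO replicate 2 nearly met. For Gata6 the log2 fold change was -0.10 ± 0.08 (SE; edgeR adjusted p = 0.486), and it ranged from -0.15 to -0.05 with 1 library left out. The noncoding gene 1010001N08Rik starts head to head with Gata6 on chromosome 18, with 93 shared exonic bases, and did not pass either, at 0.27 on the log2 scale (edgeR adjusted p = 0.148).

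The balance among the GATA paralogs was much the same in all 4 libraries. Per kilobase of exon, Gata4 made up 61.6% and 62.5% of the summed level of the 3 genes in WT and 64.1% and 62.2% in Sox17eKO. Gata6 made up 24.8% and 22.7% in WT and 22.6% and 24.8% in Sox17eKO, which overlap. Gata5 held 13.6% and 14.8% in WT and 13.3% and 13.0% in Sox17eKO, the Sox17eKO shares being the lower ones. As a log2 ratio per length, Gata5 over Gata4 averaged -2.13 (SD 0.076) over the 2 WT pools and -2.26 (SD 0.0048) over the 2 Sox17eKO pools, a difference of -0.13. An exact two-sided permutation test over the 4 libraries gave p = 0.333, the smallest that 2 against 2 allows, and 0.667 after adjustment over the 4 paralog ratios tested. Gata4 over Gata6 differed by 0.03 between genotypes (exact permutation p = 0.667), less than the spread between pools.

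Zfpm2 was higher in both Sox17eKO pools and did not pass. FOG2, its product, is needed for the coronary vessels and for the septa of the heart. Its level was 22.4 and 23.4 CPM in WT and 30.2 and 26.5 CPM in Sox17eKO, from 185 to 583 reads per library. On the log2 scale the difference was 0.31 ± 0.11 (SE), or 1.24-fold in fitted level, with a 95% interval of 0.07 to 0.55 (edgeR adjusted p = 0.124). Zfpm2 is the longest of these genes on the genome, covering 449558 bp of chromosome 15 from 40655035 to 41104592, with 9536 bp in exons. With the smooth trend on exonic length and gene span removed from each library, its log2 fold change was 0.10 (95% interval -0.13 to 0.33).

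Mef2c came closest to the threshold, and Mef2a had a difference of the same sign that was also not past it. Mef2c, a MADS-box factor needed for looping and for the right ventricle and outflow tract, was at 143 and 124 CPM in WT and at 157 and 161 CPM in Sox17eKO. Both Sox17eKO pools exceeded both WT pools, and the fitted level was 1.19-fold higher. Its log2 fold change of 0.25 ± 0.08 (SE) had a 95% interval of 0.08 to 0.42 (edgeR adjusted p = 0.0755). The size of that difference depended on the WT pool used: it was 0.36 and past the threshold without WT replicate 1 (edgeR adjusted p = 0.0369) and 0.16 without WT replicate 2 (edgeR adjusted p = 0.492). Mef2a, the paralog that persists in mature muscle, was at 239 and 218 CPM in WT and at 262 and 264 CPM in Sox17eKO. The Sox17eKO pools of Mef2a lay within 2 CPM of each other and above both WT pools. For Mef2a the log2 fold change was 0.20 ± 0.08 (SE; edgeR adjusted p = 0.137). Mef2c covers chromosome 13 from 83504034 to 83667080, with 31 annotated transcripts, and Mef2a covers chromosome 7 from 67231163 to 67372858 with 12, so counts per gene sum many variants. Lysmd4, on the strand opposite to Mef2a and sharing 302 exonic bases with it, did not pass, at -0.30 on the log2 scale (edgeR adjusted p = 0.162).

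Mef2c and Mef2a kept a nearly fixed ratio. Mef2c per Mef2a, per length, was 0.557 and 0.534 in WT and 0.560 and 0.570 in Sox17eKO. The log2 ratio was higher by 0.05 in Sox17eKO, with no overlap between the genotypes (exact two-sided permutation p = 0.333, adjusted 0.667). Over the 4 libraries, the profiles of these paralogs were the second nearest of the 45 pairs of factors, with a root mean square distance of 0.035 between log2 CPM values centred on each gene's mean. Nearest were Gata6 and Hand2 (0.031), and farthest Hand1 and Isl1 (0.46). Hand1 and Isl1 had few reads (134 to 214 and 58 to 211 per library), and the part of counting noise in their distance was not tested. These distances rest on only 4 libraries, which differed in depth, and they are descriptions.

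Nkx2-5, a homeobox factor expressed in heart muscle and its progenitors, differed as much between pools of a genotype as between genotypes. Its level was 46.3 and 59.1 CPM in WT and 40.6 and 48.2 CPM in Sox17eKO, and the ranges overlapped. In each genotype replicate 2 was the higher pool, and replicate numbers were not stated to mark a shared litter or day. Between genotypes the log2 fold change was -0.23 ± 0.12 (SE), with a 95% interval of -0.48 to 0.02 (edgeR adjusted p = 0.275). Leaving out WT replicate 2 gave -0.06 and leaving out WT replicate 1 gave -0.41, neither past the threshold (edgeR adjusted p = 0.880 and 0.0617). The gene occupies 6346 bp of chromosome 17, from 26838664 to 26845009 on the minus strand.

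The HAND genes were expressed at very unequal levels, and neither passed. Hand2, the main HAND gene of the outflow tract and of cardiac neural crest, was at 124 and 122 CPM in WT and at 107 and 119 CPM in Sox17eKO. The genotypes did not overlap, and the log2 fold change of -0.12 ± 0.08 (SE) had a 95% interval of -0.29 to 0.04 (edgeR adjusted p = 0.379). For Hand2 the value was -0.05 without Sox17eKO replicate 1 and -0.20 without Sox17eKO replicate 2, neither past the threshold (edgeR adjusted p = 0.854 and 0.327). Hand2os1, also called Upperhand, is transcribed from the opposite strand over the sequence printed above and over 461 exonic bases shared with Hand2. Its level was 58.9 and 59.5 CPM in WT and 65.5 and 60.7 CPM in Sox17eKO. Hand2os1 had a log2 fold change of 0.09, opposite in sign to that of Hand2 and not past the threshold (edgeR adjusted p = 0.567). The libraries were strand-specific. Whether the counting used strand is not given in the sources used here, and without strand Hand2 and Hand2os1 cannot be told apart where they overlap.

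Hand1, most prominent in the left ventricle and the myocardial cuff, was at 11.2 and 17.0 CPM in WT and at 11.7 and 9.73 CPM in Sox17eKO. WT replicate 2 stood above the other 3 libraries, which were close to each other. Its log2 fold change of -0.37 was the largest in size of the 10 and had the widest interval, -0.75 to 0.0057 (SE 0.18, edgeR adjusted p = 0.246). That value rests on WT replicate 2: it was -0.08 without that library (edgeR adjusted p = 0.892) and -0.67, past the threshold, without WT replicate 1 (edgeR adjusted p = 0.0391). Hand1 was covered by 134 to 214 reads per library and lies on chromosome 11 from 57828705 to 57832818. Hand1 made up 9.63% and 14.1% of the summed HAND level per length in WT and 11.4% and 8.81% in Sox17eKO, with overlap between the genotypes. The log2 ratio of Hand1 over Hand2 differed by -0.24 (exact two-sided permutation p = 0.667), within the spread between pools (SD 0.44 in WT and 0.29 in Sox17eKO).

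Isl1 had the fewest reads of the 10, between 58 and 211 per library. Its level was 9.23 and 7.34 CPM in WT and 10.0 and 9.60 CPM in Sox17eKO. Both Sox17eKO pools were above both WT pools, though WT replicate 1 was nearer to them than to WT replicate 2. Isl1 had a log2 fold change of 0.22 ± 0.17 (SE) and a 95% interval of -0.13 to 0.56 (edgeR adjusted p = 0.489). Without WT replicate 2 the value was 0.08 and without WT replicate 1 it was 0.42, neither past the threshold (edgeR adjusted p = 0.894 and 0.274). Isl1 lies on the minus strand of chromosome 13 between 116298281 and 116309689, with 3959 bp in exons.

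The direction of the 10 factors followed their exonic length. Zfpm2, Mef2a and Mef2c, the 3 longest with 9536, 14681 and 15715 bp of exon, were among the 4 with a higher fitted level in Sox17eKO. Nkx2-5, Hand1 and Hand2, the 3 shortest with 1719, 1997 and 2351 bp, were all lower. Spearman's rho between log2 fold change and exonic length was 0.87 over the 10 factors and 0.46 over 13361 protein-coding genes, where points share libraries and where length runs with base composition and gene span. With these genes split into 5 equal classes by exonic length, the longest class (7827 bp or more), which holds Zfpm2, Mef2a and Mef2c, had a median log2 fold change of 0.16, and 14.2% of it was called. In the shortest class (up to 2581 bp), which holds Nkx2-5, Hand1 and Hand2, the median was -0.14. Isl1, in the middle class with a median of -0.03, and Gata6, in the next longer class with a median of 0.04, stood on the other side of zero from their classes.

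**Figure D3:**
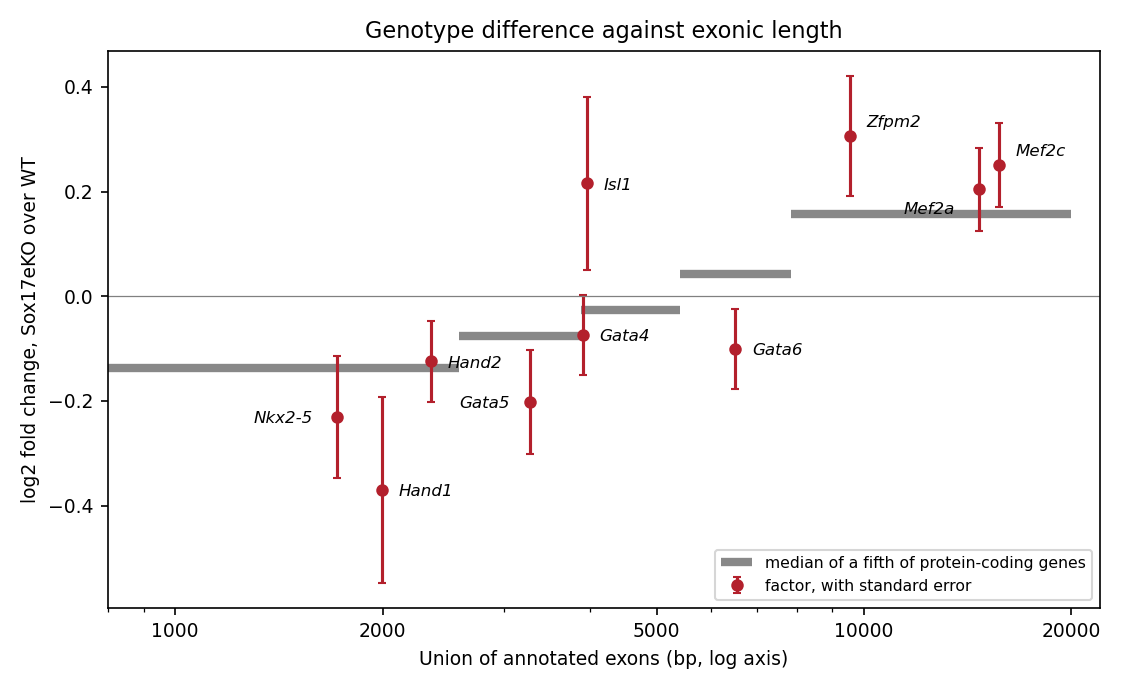
Log2 fold change of each factor, Sox17eKO over WT, against the union of its annotated exons (horizontal log axis), with standard errors as bars; grey lines are the medians of 5 equal length classes of 13361 protein-coding genes, drawn within the axis. The 3 shortest factors lie between -0.37 and -0.12 and the 3 longest between 0.20 and 0.31, near or beyond the medians of their classes.

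With the trend on exonic length and gene span removed from each library, in a fit on protein-coding genes, the fitted differences of the MEF2 genes were near zero. Mef2c then had a log2 fold change of 0.00054 (95% interval -0.15 to 0.15) and Mef2a one of -0.03 (-0.17 to 0.11). Hand2 moved to -0.03 and Nkx2-5 to -0.10, Hand1 to -0.25 and Gata5 to -0.14. Isl1 at 0.25 and Gata4 at -0.08 were little changed, and Gata6 moved farther from zero, to -0.15 ± 0.07 (SE). None of the 10 passed in this fit (smallest edgeR adjusted p = 0.365, for Gata6), in which 1.13% of genes were called. A genotype difference that itself runs with length would be taken out by the same step. Sox17 kept a log2 fold change of -1.17 in this fit (edgeR adjusted p = 0.0108).

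**Figure D4:**
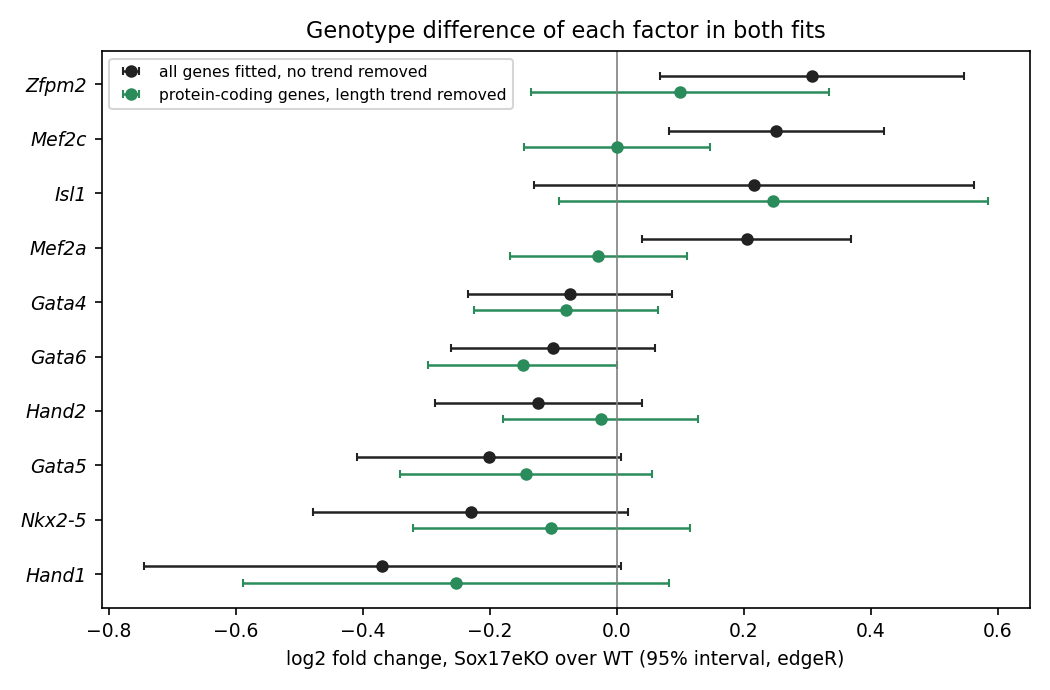
Log2 fold change of each factor with its 95% interval from edgeR, in the fit of all genes (black) and in the fit of protein-coding genes with the trend on length and span removed (green); the grey line marks no difference. The black intervals of Zfpm2, Mef2c and Mef2a lie above zero and all 3 of their green intervals include it.

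Partners and known targets of these factors were taken from fixed lists. Of 20 partners and regulators, 4 rose in Sox17eKO and none fell, with a list median of -0.007, where 4.13% of all genes tested rose and 1.22% fell and 14.2% of the longest class of protein-coding genes was called. Ep300 and Crebbp, the related acetyltransferases that act as coactivators for GATA4 and MEF2 factors, rose with log2 fold changes of 0.498 and 0.46 (edgeR adjusted p = 0.00349 and 0.00403). Tcf4, an E protein and dimer partner of HAND proteins, rose by 0.32 (edgeR adjusted p = 0.0337), and Myocd, a coactivator of SRF, by 0.31 (edgeR adjusted p = 0.0423). These 4 genes carry 6424 to 27382 bp of exon, and with the length trend removed none of the 20 passed (0.30 for Ep300, 0.25 for Crebbp, 0.24 for Myocd and -0.07 for Tcf4). With trends on length and base composition (GC) both removed, Ep300 (0.30) and Crebbp (0.26) passed (edgeR adjusted p = 0.0382 and 0.0467), where 2.05% of genes were called. Myocd and Tcf4 did not pass in that fit (edgeR adjusted p = 0.126 and 0.683). Without WT replicate 2 none of these 4 passed (log2 fold changes 0.38 for Ep300, 0.39 for Crebbp, 0.21 for Tcf4 and 0.39 for Myocd). Tcf4 and Myocd also did not pass with DESeq2, with limma-voom or with no robust option in edgeR. Ep300 and Crebbp passed without any other single library, Tcf4 also did not pass without either Sox17eKO pool, and Myocd did not pass whichever library was left out.

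Of 22 heart muscle genes listed as targets of GATA, NKX2-5 or MEF2 factors, Slc8a1 and Bmp10 rose, Nppa fell and 19 did not pass. The median log2 fold change of the list was -0.07. Over all genes 5.35% were called (4.13% higher and 1.22% lower). Slc8a1, the sodium-calcium exchanger, went from 1003 ± 61.5 to 1323 ± 6.77 CPM (mean ± SD, n = 2 pools), a difference of 0.398 on the log2 scale (edgeR adjusted p = 0.00861). Its exons span 18807 bp, and with the length trend removed the difference was 0.07 and no longer passed (edgeR adjusted p = 0.667). Bmp10, a ligand of trabecular and atrial muscle, was at 17.1 ± 4.13 CPM in WT and 25.1 ± 1.51 CPM in Sox17eKO and passed also with that trend removed (edgeR adjusted p = 0.0372). Bmp10 did not pass with limma-voom (adjusted p = 0.0665) or with no robust option in edgeR (adjusted p = 0.0666), and DESeq2 gave it no adjusted p. Nppa, a natriuretic peptide gene and a classic target of GATA4 and NKX2-5, fell from 655 ± 27.7 to 517 ± 1.80 CPM (log2 fold change -0.34, edgeR adjusted p = 0.0158) and did not pass with the trend removed (-0.18, edgeR adjusted p = 0.190). Without WT replicate 2 none of the 22 passed (0.33 for both Slc8a1 and Bmp10 and -0.30 for Nppa). Bmp10 and Nppa also did not pass without either Sox17eKO pool (0.59 and 0.47 for Bmp10, -0.34 both times for Nppa), nor did Slc8a1 without Sox17eKO replicate 1 (0.39).

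Of 17 second heart field and outflow tract genes, 13 passed the filter and none was called (edgeR; median 0.02), which is near the 5.35% called over all genes. Foxc1, a forkhead factor of outflow tract mesenchyme, had the smallest p (log2 fold change -0.39, edgeR adjusted p = 0.0546). Tbx1, Fgf8, Six2 and Nkx2-6 did not pass the filter on low counts. Of 14 endocardial cushion genes 1 rose, Vcan (0.52), and the other 13 did not pass, with a median of -0.007, also beside 5.35% of all genes. Vcan itself did not pass with DESeq2 (adjusted p = 0.0896), without WT replicate 2 (0.34), without Sox17eKO replicate 1 (0.46) or with the length trend removed (0.31). With length and GC trends both removed Vcan passed (0.30, edgeR adjusted p = 0.0416). Among related family members, 8 of 11 (Gata1, Gata2, Gata3, Mef2d, Isl2, Twist1, Twist2 and Zfpm1) were tested and none was called, again near the 5.35% over all genes, with a median of -0.19. Twist1, a mesenchymal factor, had the smallest p there (log2 fold change -0.22, edgeR adjusted p = 0.137).

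Markers of the cell types in which these factors work were present in every library, and the counts called in these lists stand beside 5.35% of all genes. Fitted direction ran with exonic length over all protein-coding genes. In the shortest class 22.3% were fitted higher in Sox17eKO, in the next 32.4% and in the longest 80.9%. Counts of markers fitted lower or higher stand beside these shares, and the part of length in them was not tested. The summed level of 8 cardiomyocyte genes was 14877 and 15382 CPM in WT and 15572 and 17431 CPM in Sox17eKO. Fitted levels in Sox17eKO were higher for 4 of these 8 and lower for 4, and 1 of the higher ones (Ryr2) rose past the threshold. The 6 endothelial genes summed to 805 and 823 CPM in WT and 744 and 798 CPM in Sox17eKO, with 5 of 6 fitted lower in Sox17eKO, and 1 of them (Tie1) fell. The 4 endocardial genes summed to 252 and 263 CPM in WT and 226 and 260 CPM in Sox17eKO, which overlap, and none passed though all 4 were fitted lower. Fitted levels of all 8 epicardial genes were lower in Sox17eKO, their sums being 398 and 425 CPM against 365 and 328 CPM, and Upk3b and Lrrn4 fell. GATA4, GATA5, GATA6 and HAND2 are also present in epicardium, and the part of this difference in their values was not tested. The 4 liver genes varied between pools and not by genotype (71.3 and 11.5 CPM in WT, 5.38 and 123 CPM in Sox17eKO). Of 6 genes of lung and foregut epithelium, Nkx2-1 and Sftpc had 0 reads, but others were detected. The list summed to 17.1 and 18.2 CPM for the WT pools and to 18.9 and 17.7 CPM for the Sox17eKO pools, which overlap. Its 3 genes that passed the filter on low counts were all fitted higher, and none was called. Smooth muscle genes summed to 1882 and 1919 CPM in WT and 1725 and 1669 CPM in Sox17eKO, where Cnn1 fell, and of 6 erythroid genes, all fitted lower with a median log2 fold change of -0.54, Hbb-y fell, with sums of 2333 and 2928 against 1541 and 2003 CPM. The 6 genes of cushion and other mesenchyme summed to 3702 and 3306 CPM in WT and 3668 and 3642 CPM in Sox17eKO, which overlap. Fitted levels in Sox17eKO were lower for 4 of these 6 and higher for 2, and 1 of the higher ones (Pdgfra) rose past the threshold. Of the marker genes named as risen or fallen, Ryr2 passed whichever library was left out, and with the length trend removed its log2 fold change went from 0.74 to 0.32 and still passed (edgeR adjusted p = 0.0143). In that fit Tie1, Upk3b and Lrrn4 passed, and Cnn1 (-0.27), Hbb-y (-0.38) and Pdgfra (0.19) did not (edgeR adjusted p = 0.0720, 0.276 and 0.223). Cnn1 passed with length and GC trends both removed (edgeR adjusted p = 0.0273) but not with no robust option (edgeR adjusted p = 0.0507). Pdgfra did not pass with limma-voom (adjusted p = 0.0601) or with no robust option (edgeR adjusted p = 0.0741). Hbb-y did not pass with DESeq2 (adjusted p = 0.131) or on protein-coding genes only (edgeR adjusted p = 0.0528). Without WT replicate 2, Tie1 (log2 fold change -0.26), Upk3b (-0.33), Lrrn4 (-0.41), Cnn1 (-0.23), Hbb-y (-0.44) and Pdgfra (0.20) did not pass. Tie1, Cnn1, Hbb-y and Pdgfra also did not pass without Sox17eKO replicate 1 (-0.29, -0.38, -0.38 and 0.28), Upk3b, Lrrn4, Cnn1 and Pdgfra without Sox17eKO replicate 2 (-0.27, -0.40, -0.32 and 0.35), and Hbb-y without WT replicate 1 (-0.67).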

How the data were processed

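The authors deposited a table of raw counts for 4 libraries, made with TopHat2 and HTSeq on mm10 per the submitters' processing notes. Tool versions, gene annotation and strand handling are not given in the sources used here. Genotypes and replicate numbers came from sample titles. Symbols, coordinates, exonic lengths and gene span came from GENCODE M21 (GRCm38), which matched 45143 of 45706 genes. Library sizes and tests used gene rows alone, without the 5 HTSeq summary rows. Pools differed by more than sampling noise.

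Genotype was tested with edgeR 4.0.16 (R 4.3.3; TMM, filterByExpr, robust quasi-likelihood fit, Benjamini-Hochberg over 16570 genes), and genes under an adjusted p of 0.05 were called. SE was taken as |log2 fold change| over the square root of F. Alternatives were DESeq2 1.42.0, limma-voom (3.58.1), other scalings and filters, no robust option, a replicate block, protein-coding genes only, smooth length or GC trends removed (mgcv 1.9.3) and each library left out. The code was tested on simulated counts of these 16570 genes. Named genes were the 10 factors, Sox17, counted neighbours within 5000 bp, up to 4 called genes of each list of partners and targets (otherwise that with the smallest p) and up to 2 of each marker list. The factors and lists were chosen with earlier results of these data known.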

Additional observations from a re-analysis of the deposited data

How the results depend on the processing

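With 2 pools a genotype, genes changed 1.5-fold and 2-fold can be missed (64% and 76% called in simulated counts of genes drawn from all those tested). These are not rates for the factors, which had 58 to 5813 reads per library. For each factor a doubling or a halving lay outside the 95% interval. Single pools moved several estimates. Genes called numbered 886, against 381 with DESeq2, 517 with limma-voom, 1364 with no filter on low counts, 598 with no robust option, 151 after removing the length trend and 274 after removing length and GC trends, and 103 to 970 with 1 library left out.

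Factors called were 0, but 1 (Mef2c, edgeR adjusted p = 0.0387) with no filter on low counts, 1 (Mef2c, edgeR adjusted p = 0.0222) with the replicate block, and 0 to 2 with 1 library left out. The block raised genes called to 1684, or 10.2% of those tested. Same-numbered libraries did not deviate together (correlation of deviations -0.032), so the numbers were not taken to pair them. Shares of all genes called were 5.88% with DESeq2 (of those given an adjusted p), 3.12% with limma-voom, 4.87% with no filter and 3.61% with no robust option. On protein-coding genes only the share was 5.61%, or 1.13% after removing the length trend and 2.05% after removing length and GC trends. Called partners and regulators were 2 with limma-voom, with no robust option and after removing length and GC trends, 0 after removing the length trend, and 0 to 5 with 1 library left out. Called muscle targets were 6 with DESeq2 and with the block, and 0 to 4 with 1 library left out. Called second heart field genes were 1 with no filter and on protein-coding genes only, and 2 with the block. Called cushion genes were 3 with no filter and with the block, 2 on protein-coding genes only, and 0 to 2 with 1 library left out.

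Sox17 ranged from -1.29 to -1.12 with 1 library left out, past the threshold except without WT replicate 2. Signs turned for Mef2a (-0.029 after removing the length trend, -0.035 after removing length and GC trends) and, in the latter fit, for Mef2c (-0.0038) and Hand2 (0.0072). With 1 library left out, the log2 ratio difference ranged from -0.064 to 0.12 for Gata4 over Gata6, lower in Sox17eKO without WT replicate 1 (-0.050) and without Sox17eKO replicate 1 (-0.064), and from -0.55 to 0.066 for Hand1 over Hand2, turning without WT replicate 2. The cause was not tested.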
